A study of Rattus norvegicus with 20 samples.

Results

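Cerebellar granule cells are the small excitatory neurons of the cerebellum, and their transcripts were followed here through 10 genes taken from a fixed list: Cbln1, Cbln3, Fat2, En2, Neurod1, Zic1, Zic2, Cadps2, Cdh15 and Etv1. A gene was taken through each probe set annotated to it alone, which gave 14 probe sets for 9 of the 10 genes, out of 31042 probe sets that are not controls and 14217 named genes. Cbln3 had no such probe set and was not analysed here. Cbln1 was read by 2 probe sets and Etv1 by 5, and probe sets of 1 gene share its transcript and are not independent. All 14 passed the filter on dim probe sets, a mean log2 signal over the 20 arrays above 6.62, the 40th percentile.

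Granule cells receive mossy fibres in the granular layer and send parallel fibres to Purkinje cells. They are born from a dividing precursor pool at the cerebellar surface, migrate inward, and keep several transcription factors of that passage through adult life. Some of these genes are also used elsewhere in the adult brain, Etv1 in deep-layer cortical neurons among them.

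The arrays were 1-colour Affymetrix rat arrays, 1 per animal, from male Sprague Dawley rats aged 20 weeks and weighing 250 to 300 g. In the isoflurane group, 10 rats breathed 2% isoflurane, a volatile anaesthetic, in oxygen for 15 minutes, a dose of 1.4 MAC, the unit of anaesthetic potency. In the oxygen group, 10 rats breathed oxygen alone for the same time. Both groups recovered for 6 hours before the brain was taken, and the labels call all 20 samples brain cortex. Whole dissected tissue was used, so fewer cells of a type and less RNA per cell cannot be told apart in any value below.

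Marker genes went against the tissue label on 11 arrays. With a line drawn at a linear signal of 4096 (12 on the log2 scale) for Pcp2, a Purkinje cell gene, 11 arrays lay above it, at 13.60 to 14.17, and 9 below it, at 4.46 to 10.67. The 11 are called cerebellum-like arrays here (isoflurane arrays 1, 3, 7, 8 and 9, oxygen arrays 5 to 10) and the 9 cortex-like arrays (isoflurane arrays 2, 4, 5, 6 and 10, oxygen arrays 1 to 4). Leaving aside Pcp2, which drew the line, 8 of 9 Purkinje cell markers were higher on every cerebellum-like array than on any cortex-like array, as were 9.47% of the 18625 probe sets that passed the filter. Of 9 markers of cortical projection neurons 6 were lower with no overlap, as were 9.34% of those probe sets. Fezf2, which specifies deep-layer projection neurons of the cortex, lay at 1.31 to 6.96 there, against 8.69 to 9.43 on the cortex-like arrays. Since the 2 sets were parted by a measured signal, differences between them are given as description, with no test. Each array had been scaled to a trimmed mean signal between 500.1 and 500.2, with log2 medians between 7.20 and 7.57. No pair of arrays correlated above 0.958.

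Promoter windows of 300 bases, 250 before the gene start and 50 after it, were held for 7 of the 10 genes in RefSeq's table for the rat assembly GRCr8. The windows of Fat2 (chr10:39956853-39957152, minus strand), En2 (chr4:7960744-7961043, minus strand) and Neurod1 (chr3:84770405-84770704, minus strand) are shown because these 3 transcripts, with Cbln1, varied most among the cortex-like arrays below. The window of Cdh15 (chr19:67814407-67814706, plus strand) is shown beside them because its transcript, also high in cerebellum-like tissue, varied little there. Capitals mark the E-box CANNTG, the core recognised by basic helix-loop-helix factors such as Neurod1, which reads the same way on both strands.
Fat2: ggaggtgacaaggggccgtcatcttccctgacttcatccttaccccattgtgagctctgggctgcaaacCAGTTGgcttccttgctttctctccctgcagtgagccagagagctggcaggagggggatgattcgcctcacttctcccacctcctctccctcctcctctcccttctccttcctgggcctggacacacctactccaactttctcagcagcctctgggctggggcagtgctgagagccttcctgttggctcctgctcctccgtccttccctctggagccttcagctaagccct
En2: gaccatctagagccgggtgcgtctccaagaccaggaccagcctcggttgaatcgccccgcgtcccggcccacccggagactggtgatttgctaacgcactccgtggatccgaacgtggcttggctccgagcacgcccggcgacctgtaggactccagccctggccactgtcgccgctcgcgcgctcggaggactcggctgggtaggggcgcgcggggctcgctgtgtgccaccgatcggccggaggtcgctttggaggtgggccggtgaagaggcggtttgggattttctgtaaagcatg
Neurod1: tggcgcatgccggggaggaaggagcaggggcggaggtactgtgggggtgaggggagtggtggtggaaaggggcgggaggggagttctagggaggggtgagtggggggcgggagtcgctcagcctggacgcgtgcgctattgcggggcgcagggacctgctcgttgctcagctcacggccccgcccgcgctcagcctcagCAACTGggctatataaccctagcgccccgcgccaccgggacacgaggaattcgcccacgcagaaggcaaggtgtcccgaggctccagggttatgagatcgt
Cdh15: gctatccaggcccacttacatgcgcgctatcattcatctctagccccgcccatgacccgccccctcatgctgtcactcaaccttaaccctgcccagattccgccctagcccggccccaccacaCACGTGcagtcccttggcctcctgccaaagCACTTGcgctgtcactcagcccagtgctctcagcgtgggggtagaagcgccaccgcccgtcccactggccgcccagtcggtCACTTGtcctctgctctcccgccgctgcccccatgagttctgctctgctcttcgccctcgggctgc
The letters CANNTG occurred once in the Fat2 window, once in that of Neurod1, 3 times in that of Cdh15 and not at all in that of En2. Over the 7 genes, 5 windows held it, against 72.1% of all 33469 promoter windows of this length. The forms CAGATG and CATCTG, the E-box most often tied to Neurod factors and itself a case of CANNTG, were in none of the 7 windows and in 16.6% of all. TATAAA, searched on both strands as TATAAA or TTTATA, was in none of the 7 and in 14.2% of all, and CCAAT, as CCAAT or ATTGG, was in none of the 7 and in 37.5% of all. GC content was 59.7% for Fat2, 67.0% for En2, 68.0% for Neurod1 and 65.0% for Cdh15, against a median of 51.7%. These matches are a description of the letters in the windows.

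All 9 measured genes, through all 14 probe sets, were higher on every cerebellum-like array than on any cortex-like array. The share over all 18625 probe sets that passed the filter was 9.47%. The median difference of the 9 genes, cerebellum-like minus cortex-like on the log2 scale, was 2.83, against 0.07 over 10315 genes. The empty gap between the sets was widest for En2, at 3.51, and narrowest for Zic2, at 0.05.

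Among genes of the parallel fibre, Cbln1 is secreted by granule cells and joins neurexins on their terminals to the receptor GluD2 on Purkinje cells. Its brighter probe set read 13.23, 13.33, 13.31, 13.28 and 13.13 on cerebellum-like isoflurane arrays 1, 3, 7, 8 and 9, and 13.09 at the lowest, 13.23 at the median and 13.38 at the highest on the 6 cerebellum-like oxygen arrays. On cortex-like isoflurane arrays 2, 4, 5, 6 and 10 it read 5.98, 6.98, 6.61, 6.76 and 9.98, and on cortex-like oxygen arrays 1 to 4 it read 8.47, 8.51, 7.89 and 8.77. The cerebellum-like arrays therefore lay close together while the cortex-like arrays spread widely, with isoflurane array 10 far above the other 4 isoflurane arrays. The mean linear signal was 31.3-fold higher on cerebellum-like than on cortex-like arrays, and 38.4-fold higher by the second probe set.

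Fat2 encodes an atypical cadherin of parallel fibres. It read 11.62, 11.33, 11.33, 11.23 and 11.36 on the cerebellum-like isoflurane arrays, and 11.32, 11.51 and 11.89 at the lowest, median and highest of the cerebellum-like oxygen arrays. On the cortex-like arrays it read 3.41, 4.39, 4.63, 3.31 and 8.06 with isoflurane, and 6.66, 6.05, 4.63 and 6.58 with oxygen. Isoflurane array 10 again lay highest of the 9, and oxygen array 3 lay level with isoflurane array 5. The difference between the sets was 6.17 on the log2 scale and 41.5-fold in mean linear signal.

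Cdh15, or M-cadherin, is an adhesion molecule of muscle that also occurs at granule cell contacts in the mouse cerebellum. It read 10.18, 10.16, 9.99, 10.12 and 10.22 on the cerebellum-like isoflurane arrays, and 10.13, 10.44 and 10.55 at the lowest, median and highest of the cerebellum-like oxygen arrays. On the cortex-like arrays it read 7.67, 6.98, 7.52, 7.57 and 7.74 with isoflurane, and 7.52, 7.54, 7.43 and 7.77 with oxygen. The 2 cortex-like groups overlapped throughout, and isoflurane array 10 stood among the rest. Cadps2, which primes dense-core vesicles for release, ran from 11.89 to 12.44 on cerebellum-like arrays, against 10.46 to 11.20 on cortex-like arrays, a 2.80-fold difference in mean linear signal.

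The transcription factors covered the whole range of contrasts. En2, a homeobox factor that patterns the midbrain and cerebellum, read 11.73, 11.88, 11.80, 11.87 and 11.93 on the cerebellum-like isoflurane arrays, and 11.80, 11.91 and 12.04 at the lowest, median and highest of the oxygen arrays of that set. On cortex-like arrays it read 4.35, 3.83, 4.49, 4.42 and 8.22 with isoflurane, and 6.09, 6.49, 6.33 and 7.07 with oxygen. The contrast was 6.18 on the log2 scale and 45.2-fold in mean linear signal, next to 6.17 and 41.5-fold for Fat2. Both rest on cortex-like signals in the dim part of the array's range, so the size of these folds is less certain than their direction. The SD of En2 over the cerebellum-like arrays was 0.09, the smallest of the 9 genes.

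Neurod1, a basic helix-loop-helix factor needed for granule cells to mature and survive, read 13.55, 13.77, 14.03, 13.57 and 13.65 on the cerebellum-like isoflurane arrays, and 13.40, 13.78 and 13.96 at the lowest, median and highest of the oxygen arrays of that set. On cortex-like arrays Neurod1 read 9.72, 9.30, 9.66, 9.23 and 11.18 with isoflurane, and 9.77, 10.57, 9.67 and 10.63 with oxygen. Isoflurane array 10 was again the highest of the 9, and the other isoflurane arrays overlapped the oxygen arrays. The contrast between the sets was 12.3-fold in mean linear signal.

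Zic1 and Zic2 are zinc finger factors of granule cell precursors. Zic1 read 8.04, 9.86, 9.58, 9.62 and 9.24 on the cerebellum-like isoflurane arrays, and 7.95, 9.11 and 9.72 at the lowest, median and highest of the oxygen arrays of that set. It was the most variable of the 9 genes there, with an SD of 0.67, against a median SD of 0.25 over all probe sets tested. On cortex-like arrays Zic1 read 6.78, 6.08, 6.65, 6.50 and 6.66 with isoflurane, and 6.30, 6.37, 5.10 and 6.10 with oxygen. Zic2 ran from 8.42 to 9.93 on cerebellum-like arrays, against 7.07 to 8.37 on cortex-like arrays, so the sets came within 0.05 of touching. The contrasts were 7.40-fold for Zic1 and 2.36-fold for Zic2 in mean linear signal. Etv1, an ETS factor, is described by probe set further on; its brightest probe set differed 2.38-fold between the sets.

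**Figure D1:**
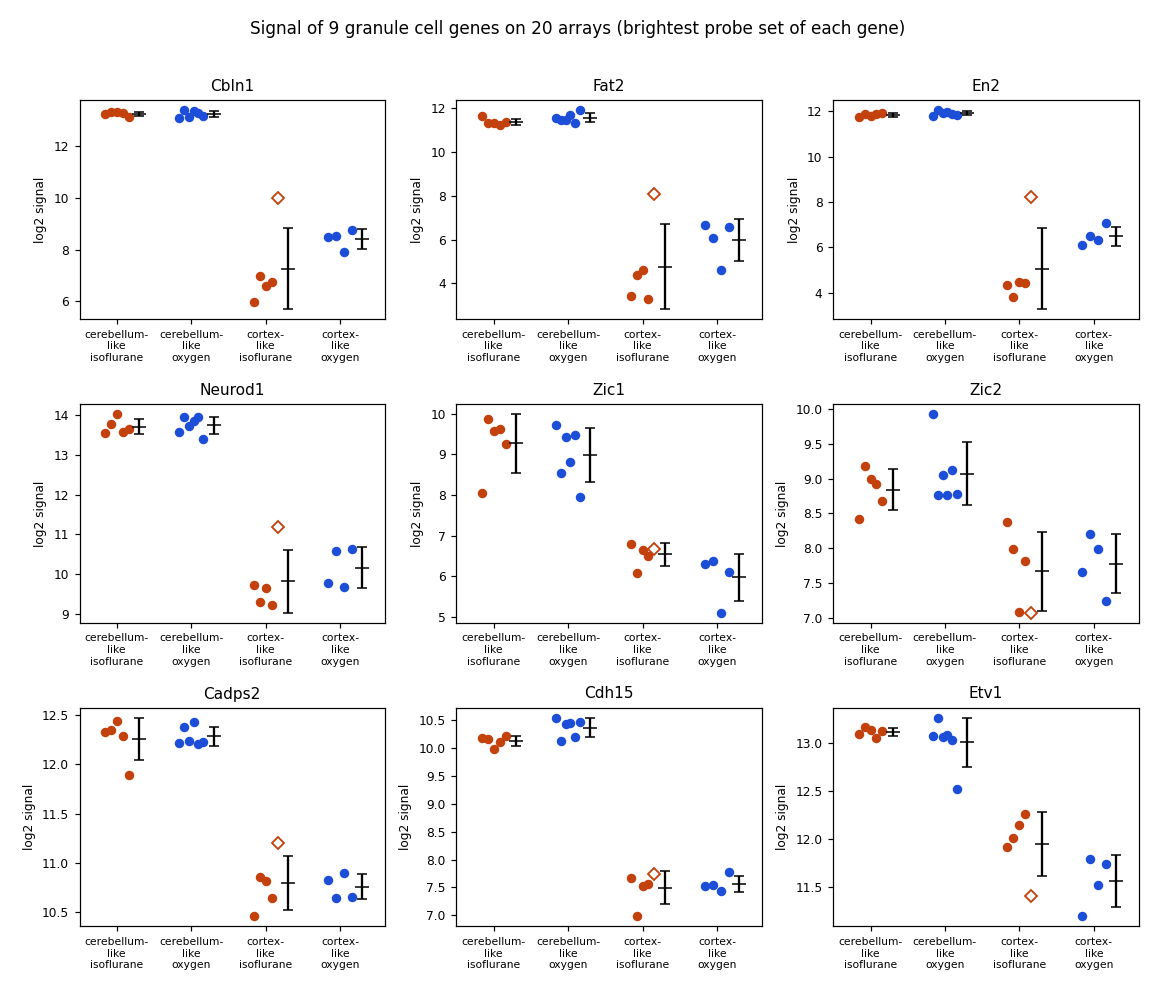
Log2 signal of each measured granule cell gene (brightest probe set) on the 20 arrays, with 1 point per array (red for isoflurane, blue for oxygen, an open diamond for isoflurane array 10) and the mean ± SD of each group as a bar, the scale of the vertical axis differing between panels. Every gene lies higher on the 11 cerebellum-like arrays than on the 9 cortex-like arrays, by a gap of 0.05 for Zic2 and 3.51 for En2, and isoflurane array 10 stands above the other cortex-like isoflurane arrays for Cbln1, Fat2, En2 and Neurod1.

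The genes that spread most among cortex-like arrays were also those with the largest contrast between the sets. On the log2 scale that contrast was 6.17 for Fat2, 6.18 for En2, 5.47 for Cbln1 and 3.76 for Neurod1, and at most 2.83 (Zic1) for the rest. The SD over the 9 cortex-like arrays was 1.62 for Fat2, 1.49 for En2, 1.28 for Cbln1 and 0.67 for Neurod1, against a median of 0.29 over all probe sets tested. It was 0.51 for Zic1, 0.48 for Zic2, 0.35 for Etv1, 0.23 for Cdh15 and 0.21 for Cadps2. The first 4 genes thus varied most among arrays that all lay below the Pcp2 line. Fat2, En2 and Zic1 averaged 5.30, 5.70 and 6.28 on these arrays, under the filter's 6.62, which they passed through their cerebellum-like signal. Their SDs therefore rest on dim signals, unlike those of most probe sets behind the median. How much of their spread comes from dim signal was not tested. Zic1 and Zic2 also varied more than the median probe set, in another order of arrays, while Cadps2 and Cdh15 varied less.

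Expressed as a percentage of the mean linear signal on cerebellum-like arrays, Cbln1 stood at 0.651%, 1.30%, 1.01%, 1.11% and 10.4% on cortex-like isoflurane arrays 2, 4, 5, 6 and 10, and at 3.65%, 3.74%, 2.43% and 4.49% on cortex-like oxygen arrays 1 to 4. En2 stood at 0.541%, 0.376%, 0.596%, 0.567% and 7.93% on the isoflurane arrays, and at 1.81%, 2.39%, 2.14% and 3.56% on the oxygen arrays. Fat2 stood at 0.371%, 0.734%, 0.862%, 0.346% and 9.33% on the isoflurane arrays, and at 3.52%, 2.31%, 0.865% and 3.33% on the oxygen arrays. For these 3 genes isoflurane array 10 came first, the 4 oxygen arrays next and the other 4 isoflurane arrays last.

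The remaining genes kept larger residues and another order. Neurod1 stood at 4.37% to 16.9% on the isoflurane arrays, against 5.95% to 11.6% on the oxygen arrays, with isoflurane array 10 again highest. Cdh15 stood at 10.2% to 17.2% on the isoflurane arrays, against 14.0% to 17.6% on the oxygen arrays. Cadps2 stood at 28.3% to 47.2% on the isoflurane arrays, against 32.3% to 38.3% on the oxygen arrays, and Zic2 at 26.0% to 63.7%, against 29.2% to 56.9%. Zic1 stood at 11.2% to 18.2% on the isoflurane arrays, against 5.68% to 13.7% on the oxygen arrays, so 4 of 5 isoflurane arrays exceeded every oxygen array. The brightest Etv1 probe set stood at 31.9% to 57.4% on the isoflurane arrays, against 27.5% to 41.3% on the oxygen arrays, with isoflurane array 10 the lowest of its group.

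Over the 14 probe sets, isoflurane array 10 was the highest of the 9 cortex-like arrays for 8, which come from Cbln1, Fat2, En2, Neurod1, Cadps2 and Etv1. Isoflurane array 10 was the highest for 12.3% of all probe sets tested. Isoflurane arrays 2, 4, 5 and 6 were the 4 lowest for 5 of the 14, which come from Cbln1, Fat2, En2 and Etv1, and for 13.8% of all probe sets tested.

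Of the 10 Purkinje cell markers 4, Pcp2, Calb1, Car8 and Ppp1r17, took the same order, with isoflurane array 10 above all oxygen arrays and these above the other 4 isoflurane arrays, and 6 did not. Of the 25 other granule cell genes 3 took it, Gabra6, Calb2 and Meis1. The share of all probe sets tested that took this order was not counted. It cannot exceed the 12.3% that were highest on isoflurane array 10. Pcp2, the gene of the dividing line, stood at 0.281%, 0.143%, 0.397%, 0.197% and 10.6% of its cerebellum-like mean on the cortex-like isoflurane arrays, and at 2.04%, 2.82%, 1.29% and 2.85% on the cortex-like oxygen arrays. Ppp1r17, another Purkinje cell gene, read 5.27, 4.71, 3.32, 2.23 and 8.57 on the isoflurane arrays, and 6.69, 6.55, 5.75 and 7.14 on the oxygen arrays. Gabra6, the GABA-A receptor subunit of granule cells, read 2.97, 4.68, 4.81, 3.44 and 10.70 on the isoflurane arrays, and 8.33, 8.35, 7.00 and 8.85 on the oxygen arrays. The sum of the 10 Purkinje cell markers in linear signal ran from 22110 to 31580 on the isoflurane arrays, against 21550 to 26740 on the oxygen arrays. None of the 10 was at the floor of 1 on any array. Pcp4, at 13.03 to 13.83 on the log2 scale, and Itpr1, at 12.43 to 12.74, made up most of that sum. Pcp4 differed by 0.20 between the sets, which overlapped, so the sum says little of Purkinje cell signal here. Homer3 read 8.22 on isoflurane array 10, below all 4 oxygen arrays, and Rora ran from 9.14 to 10.24 on the isoflurane arrays, against 8.26 to 9.37 on the oxygen arrays. Of the 9 markers of cortical projection neurons, isoflurane array 10 was the lowest cortex-like array for 2, Cux2 at 8.84 and Nptx1 at 12.15, and within the range of the other arrays for the other 7, Fezf2 at 8.78 among them. How many of all probe sets were lowest on that array was not counted. Ttr, a choroid plexus gene, lay at 7.63 to 9.58 on the isoflurane arrays, against 9.39 to 13.66 on the oxygen arrays.

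The 3'/5' ratio of control transcripts, a measure of RNA degradation and labelling, moved with part of this order. On the log2 scale it was 1.28 to 1.59 on cortex-like isoflurane arrays 2, 4, 5 and 6 and 0.75 on isoflurane array 10, and 0.75, 1.23, 1.00 and 1.03 on the cortex-like oxygen arrays. The 4 isoflurane arrays with the least Cbln1, En2 and Fat2 thus had the 4 highest ratios. Among the remaining arrays the ratio did not follow the order. Isoflurane array 10 and oxygen array 1 shared a ratio of 0.75, with En2 at 8.22 and 6.09, and oxygen array 2, at 1.23, had En2 at 6.49. Between isoflurane and oxygen on these 9 arrays limma called 5 of the markers of other cells, all lower with isoflurane: Ttr at -2.97, Homer3 at -1.05, the astrocyte gene Gfap at -0.78, Neurod6 at -0.77 and Aldh1l1, a glial enzyme, at -0.51. They were 1 of 10 tested Purkinje cell markers, 1 of 8 of cortical projection neurons, 1 of 5 of astrocytes, 1 of 5 of Bergmann glia and 1 of 2 of choroid plexus. No tested marker of the remaining lists was called. Over all 10315 genes 6.22% were called higher and 9.04% lower. What part the other markers and the ratio have in the graded signal was not tested.

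**Figure D2:**
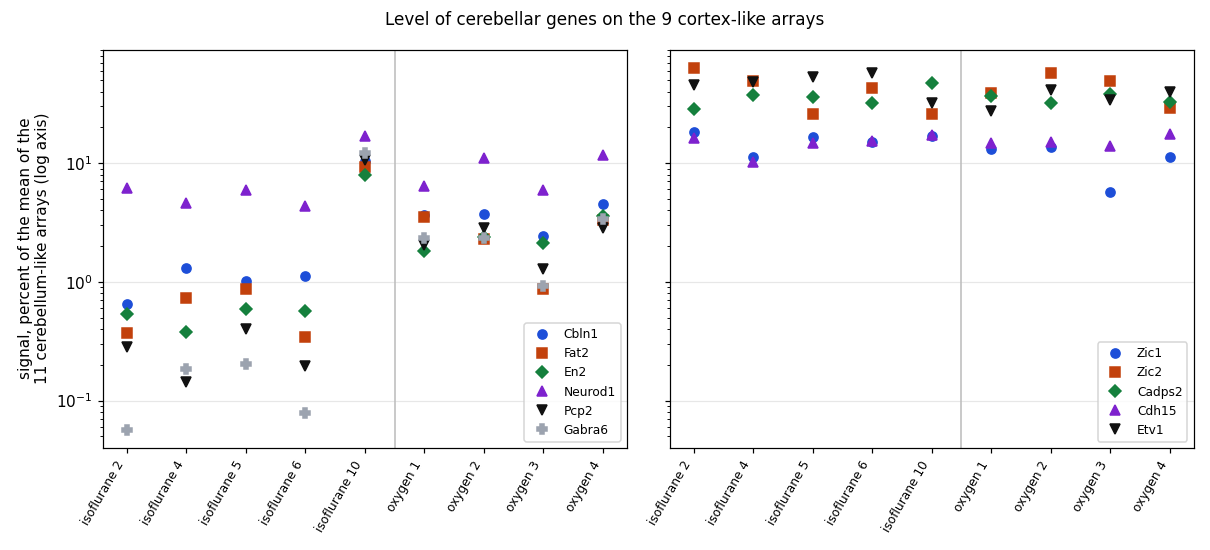
Linear signal on each of the 9 cortex-like arrays as a percentage of the gene's mean on the cerebellum-like arrays (log axis), 1 symbol per gene, with isoflurane arrays left of oxygen arrays, for the 4 most variable genes with Pcp2 and Gabra6 (left) and the other 5 (right). Cbln1, Fat2 and En2 reach 10.4%, 9.33% and 7.93% on isoflurane array 10 and reach at most 1.30% on isoflurane arrays 2, 4, 5 and 6, while Cdh15 and Cadps2 stay nearly level.

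No granule cell gene passed the test between isoflurane and oxygen on the cerebellum-like arrays, where all 9 had their highest signal. With limma, at a Benjamini-Hochberg adjusted p under 0.05, 0 of the 14 probe sets were called and 0 of all 18625 (0%), although 2 of the 14 and 2376 of the 18625 had an unadjusted p under 0.05. Without isoflurane array 9, 1086 of all probe sets were called and again 0 of the 14. The median difference, isoflurane minus oxygen on the log2 scale, was -0.03 over the 9 genes, against -0.01 over all genes.

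Cdh15 came nearest, with 10.13 ± 0.09 on isoflurane arrays and 10.37 ± 0.17 on oxygen arrays (SD, n = 5 and 6), a limma difference of -0.24 ± 0.09 (SE) and an adjusted p of 0.351. The groups overlapped, since the lowest oxygen array read 10.13 and the highest isoflurane array 10.22. The second Cbln1 probe set averaged 12.74 ± 0.13 on isoflurane arrays and 12.92 ± 0.09 on oxygen arrays, with a difference of -0.18 ± 0.08 (SE) and an adjusted p of 0.375 from limma. The brighter Cbln1 probe set differed by 0.02 ± 0.08 (adjusted p = 0.926). The 2 probe sets of Cbln1 ordered the arrays differently: isoflurane array 9 and oxygen arrays 5 and 7 were the 3 lowest of 11 in the brighter one and the 3 highest in the other.

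No other gene had an unadjusted p under 0.05. Fat2 averaged 11.37 ± 0.15 on isoflurane arrays and 11.56 ± 0.20 on oxygen arrays, with a difference of -0.18 ± 0.11 and an adjusted p of 0.453 from limma. Neurod1 averaged 13.71 ± 0.20 on isoflurane arrays and 13.74 ± 0.22 on oxygen arrays (limma's adjusted p = 0.916). En2 averaged 11.84 ± 0.08 on isoflurane arrays and 11.91 ± 0.09 on oxygen arrays (limma's adjusted p = 0.686). Zic1 had the widest error, with a difference of 0.28 ± 0.35, and Zic2 differed by -0.23 ± 0.21. Cadps2 differed by -0.02 ± 0.10 and the brightest Etv1 probe set by 0.10 ± 0.11. The SEs of Cbln1, En2, Cadps2 and Cdh15, 0.07 to 0.10, set the precision for these genes, and an adjusted p above the threshold does not show that the groups are alike. None of the 14 probe sets had groups that did not overlap, and 0.988% of all probe sets tested did.

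The same comparison on the cortex-like arrays called many probe sets, none of them from the 9 genes. Limma called 3469 of 18625 (18.6%) and 0 of the 14, of which 1, the brightest Etv1 probe set, had an unadjusted p under 0.05. Differences in Cbln1, En2 and Fat2 were large and their errors as well: -1.15 ± 0.65 for Cbln1 (adjusted p = 0.231), -1.44 ± 0.78 for En2 (adjusted p = 0.211) and -1.22 ± 0.90 for Fat2 (adjusted p = 0.358). Cortex-like signal was dim for some of these genes: En2 averaged 5.06 with isoflurane and 6.50 with oxygen, Fat2 4.76 with isoflurane and 5.98 with oxygen, and Zic1 6.54 with isoflurane and 5.97 with oxygen, all under the filter's 6.62. The filter used the mean over all 20 arrays, which these genes passed through their cerebellum-like signal. With a pseudocount of 16 in place of the floor at 1, the differences were -0.96 for En2, -0.72 for Fat2 and -1.03 for Cbln1, none of them called. Zic1 differed by 0.57 ± 0.31 and Neurod1 by -0.34 ± 0.37. Cdh15 and Cadps2 differed by -0.07 ± 0.18 and 0.04 ± 0.14. None of the 14 probe sets had groups that did not overlap, and 13.2% of all probe sets did. The array scale bears on directions here: centring arrays on their medians moved the median of all probe sets by -0.21 and left 28% of calls higher, against 60.2% as deposited and 52.3% after quantile normalization.

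These cortex-like values rested on isoflurane array 10. Cbln1, Fat2, En2 and Neurod1 were highest on that array among the 9, so leaving it out was bound to lower their differences. Limma's adjusted p without it follow from that choice of array and are given as description. Without isoflurane array 10, limma called 6266 of all probe sets (33.6%, with 17.5% higher and 16.2% lower) and 7 of the 14, of which 6 were lower and 1 was higher with isoflurane. Cbln1 differed by -1.83 ± 0.25 (adjusted p = 0.000373) and by -1.56 ± 0.27 in its second probe set. En2 differed by -2.23 ± 0.39 (adjusted p = 0.00164), Fat2 by -2.04 ± 0.60 (adjusted p = 0.0228) and Neurod1 by -0.69 ± 0.22 (adjusted p = 0.0357). The values of En2 and Fat2 here come from the same dim signals. Cadps2, Cdh15, Zic1 and Zic2 were not called without it. With the 3'/5' ratio as a covariate over all 9 cortex-like arrays, the differences were -0.20 for Cbln1 (adjusted p = 0.849), -0.37 for En2 (adjusted p = 0.772) and 0.01 for Fat2 (adjusted p = 0.997). With isoflurane arrays 2, 4, 5 and 6 left out instead, the differences were 1.57 for Cbln1, 1.73 for En2 and 2.08 for Fat2. That fit called 0 probe sets and had isoflurane array 10 as the sole array of its group, assumed to vary like the oxygen arrays. Leaving out any 1 of oxygen arrays 2 to 4 and isoflurane arrays 2, 4, 5 and 6 gave 1606 to 2015 calls, with 0 of the 14 among them.

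Whether the isoflurane difference itself differed between the sets was tested as an interaction, cerebellum-like minus cortex-like. Limma called 1897 of all probe sets (10.2%) and 0 of the 14. The values were 1.37 ± 0.74 for En2 (adjusted p = 0.232), 1.16 ± 0.65 for Cbln1 (adjusted p = 0.248) and 1.03 ± 0.85 for Fat2 (adjusted p = 0.455). Without isoflurane array 10, 23.1% of all probe sets (10.2% above 0) and 5 of the 14 were called, all 5 of them above 0: both Cbln1 probe sets, En2, Fat2 and 1 Etv1 probe set. En2 was then 2.16 ± 0.22 (adjusted p = 1.81e-06) and Cbln1 1.84 ± 0.23 (adjusted p = 1.75e-05). The interaction fit shares 1 spread between the sets, and the cerebellum-like arrays varied little (SD 0.09 for En2, 0.10 for Cbln1). Fitted on cortex-like arrays alone, without isoflurane array 10, the SEs were larger, 0.39 for En2 and 0.25 for Cbln1. These adjusted p from limma thus understate the cortex-like spread, and the cortex-like signal of En2 was dim. They also come from leaving out the cortex-like array on which En2 and Cbln1 were highest. Over all 20 arrays with the set as a block, limma called 1372 probe sets (7.37%) and 0 of the 14. Without isoflurane array 10 it called 10.3% of all probe sets (6.48% lower) and 4 of the 14, all lower: both Cbln1 probe sets, En2 and Fat2. That fit averages unlike differences of the sets. Cbln1 and En2 differed by 0.02 and -0.06 on cerebellum-like arrays, against -1.83 and -2.23 on cortex-like arrays without isoflurane array 10.

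**Figure D3:**
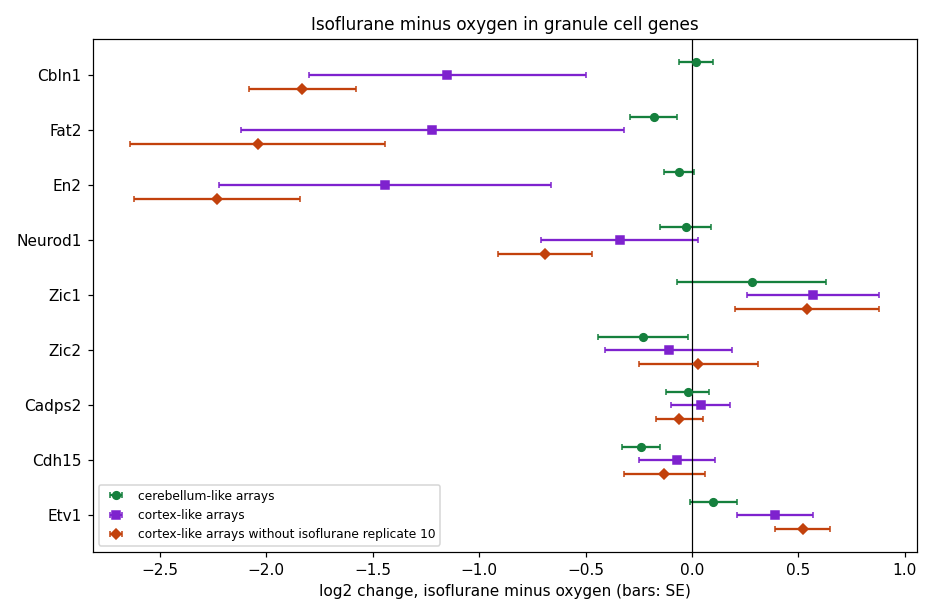
Isoflurane minus oxygen on the log2 scale with its SE for the brightest probe set of each of the 9 genes, on the 11 cerebellum-like arrays, on the 9 cortex-like arrays and on the cortex-like arrays without isoflurane array 10. The cerebellum-like values lie near 0 with short error bars for most genes, and those of Cbln1, En2 and Fat2 on cortex-like arrays have SEs of 0.65 to 0.90 with all 9 arrays and shorter ones without isoflurane array 10.

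The 5 probe sets of Etv1 did not move together on cortex-like arrays. On cerebellum-like arrays their differences between isoflurane and oxygen ran from 0.10 to 0.26, with adjusted p between 0.443 and 0.664 from limma. Oxygen array 10 was the lowest of the 11 on all 5, at 12.52 against 13.03 to 13.26 on the other oxygen arrays for the brightest (1392477_at) and at 11.49 against 12.23 to 12.38 for 1391241_at. The same array was also the lowest of the 11 for Neurod1 and Zic1 and the highest for Fat2, and its values for Cbln1, En2 and Cadps2 lay within the range of the others. Without it the brightest probe set differed by 0.01.

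On cortex-like arrays the brightest Etv1 probe set read 11.92, 12.01, 12.15, 12.26 and 11.41 with isoflurane, and 11.20, 11.79, 11.52 and 11.74 with oxygen. Isoflurane arrays 2, 4, 5 and 6 were its 4 highest and isoflurane array 10 was below 3 of the 4 oxygen arrays. Probe set 1391241_at read 8.99, 9.21, 9.32, 8.95 and 10.16 with isoflurane, and 9.54, 9.76, 9.65 and 9.83 with oxygen, so the same 4 arrays were its lowest and isoflurane array 10 its highest. Without isoflurane array 10 both passed, in opposite directions: 0.52 ± 0.13 for 1392477_at (adjusted p = 0.0119) and -0.58 ± 0.12 for 1391241_at (adjusted p = 0.00369). That array was the lowest isoflurane array for the former and the highest for the latter, so leaving it out was bound to widen both differences. The contrast between tissues was 1.27 on the log2 scale for 1392477_at and 2.81 for 1391241_at. Which transcript of Etv1 each probe set reads is not given in the sources used here.

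**Figure D4:**
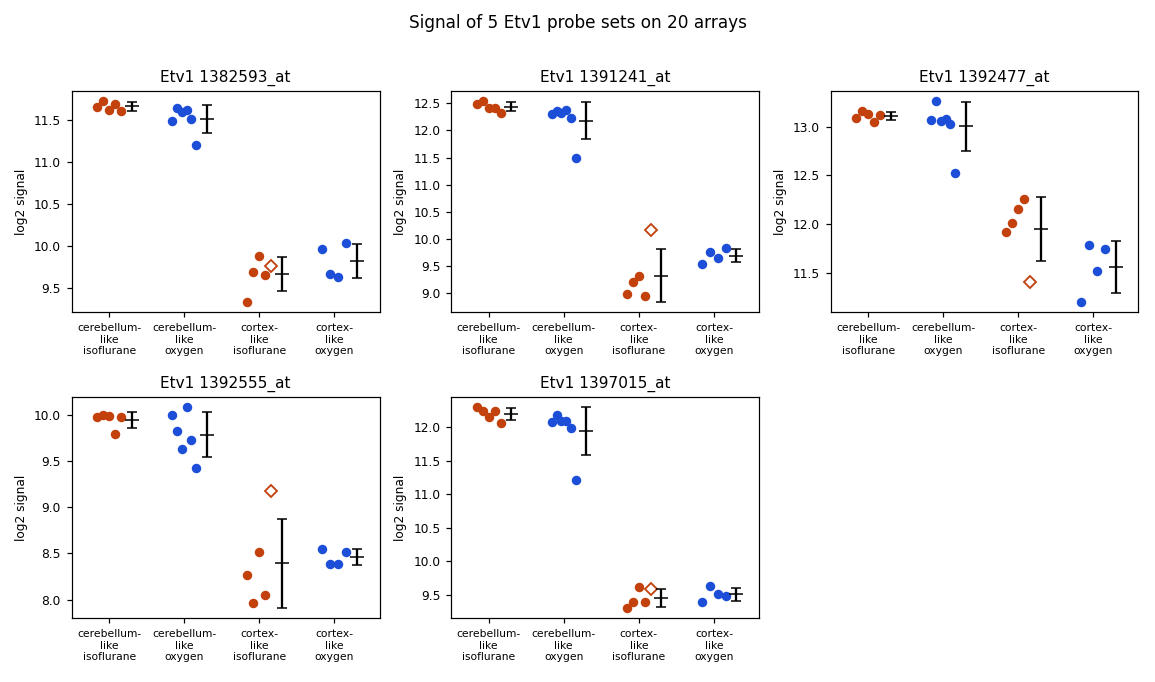
Log2 signal of the 5 Etv1 probe sets on the 20 arrays, cerebellum-like arrays left of cortex-like arrays and isoflurane left of oxygen within each, with the mean ± SD of each group as a bar and isoflurane array 10 as an open diamond. Oxygen array 10 is the lowest of the 11 cerebellum-like arrays in every panel, and isoflurane array 10 is the lowest of the 5 cortex-like isoflurane arrays for 1392477_at and the highest for 1391241_at.

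Other granule cell genes, from a list of 28 of which 25 had a probe set, were set beside these. Of the 25, 16 were higher on cerebellum-like arrays with no overlap, as were 9.47% of all probe sets tested and 10.28% of genes by their brightest tested probe set. Barhl1 and Barhl2 are counted in the 16 although they did not pass the filter behind these shares. The contrast was 7.16 on the log2 scale for Gabra6, 5.36 for Mab21l1, 4.94 for Calb2, the calcium buffer calretinin, and 3.22 for Pax6, a factor of granule cell precursors. Slc17a7, the vesicular glutamate transporter of granule cells and of cortical neurons alike, differed by -0.23. Of 22 tested with limma on cerebellum-like arrays, none passed and their median was -0.15. Sema6a, a semaphorin that guides granule cell migration, had the lowest p, at -0.62 ± 0.15 and an adjusted p of 0.331.

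On cortex-like arrays 2 of the 22 were called higher with isoflurane, Nfia at 1.30 and the netrin receptor Unc5c at 0.42, and 2 lower, Slc17a7 at -0.93 and Nfic at -0.66, with a median of -0.12 over the list and -0.05 over all genes. Over all 10315 genes 6.22% were called higher and 9.04% lower. Their adjusted p from limma ran from 0.00965 for Slc17a7 to 0.0496 for Nfic. In the interaction 4 of the 22 passed below 0, as did 4.12% of all genes: Neurod2 at -1.22, Nfia at -1.60, Zic4 at -0.71 and Cntn2 at -0.77. Nfia read 11.71, 11.56, 11.61, 11.78 and 9.86 on the cortex-like isoflurane arrays, and 9.63, 9.88, 10.17 and 10.34 on the oxygen arrays. Isoflurane array 10 lay within the range of the oxygen arrays for this gene. Over all 20 arrays with the set as a block, 3 of the 22 were called lower, as were 5.87% of all genes: Slc17a7 at -0.70, Grm4 at -0.56 and Grin2c at -0.47.

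Partners and paralogs of the granule cell genes, 17 listed and 13 with a probe set, placed the contrast beside related genes. Cbln2, a paralog of Cbln1, ran the other way, with 1.89 to 6.74 on cerebellum-like arrays against 9.39 to 9.88 on cortex-like arrays. Cdh13, Cadps and Etv5, relatives of Cdh15, Cadps2 and Etv1, were also lower on cerebellum-like arrays with no overlap, the contrasts being -1.51 for Cdh13, -0.43 for Cadps and -1.06 for Etv5. Fat1, a relative of Fat2, was higher by 1.81. Of the 13, 4 were lower and 1 higher with no overlap, as were 9.34% and 9.47% of all probe sets tested. Of 11 tested with limma for isoflurane on cerebellum-like arrays none passed, the lowest p being that of Nrxn2, a neurexin, at -0.32 (adjusted p = 0.331). On cortex-like arrays 2 of the 11 were called higher (6.22% of all genes), Nrxn3 at 1.23 and Etv4 at 1.81, and 2 lower (9.04% of all genes), Neurod6 at -0.77 and Cdh13 at -0.43. In the interaction 2 passed below 0 (4.12% of all genes), Etv4 at -2.36 and Nrxn3 at -1.52, and 2 above 0 (2.98% of all genes), Neurod6 at 0.76 and Fat4 at 0.84.

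The mean profile of the 9 genes, each centred on its own mean, spanned 0.37 over the cerebellum-like arrays and 1.46 over the cortex-like arrays. Over the 9 cortex-like arrays the profiles most like it, by Pearson's r, were those of Zfp521 (0.979), Pcp2 (0.970), Calb1 (0.968), Srfbp1 (0.959) and Drg1 (0.957). Calb1 and Pcp2 are Purkinje cell genes. Of the 9 genes themselves, Cbln1, En2, Fat2 and Neurod1 had an r of 0.944 to 0.959 with the profile they help to make, while Zic1 had 0.064, Zic2 -0.472 and the brightest Etv1 probe set -0.678. Over the 11 cerebellum-like arrays the closest were Rnf168 (0.828), Kiaa1328 (0.819), Slc22a8 (0.817), Cd59b (0.804) and Nt5c (0.789). Over all 20 arrays Atp2a3, Zfp521, Pkib and Car8 stood at 0.994 and Inpp5a at 0.993. These correlations describe arrays that share their scaling and, over 20, the division into 2 tissues.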

How the data were processed

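RNA from 20 rat brain samples, labelled cortex, was measured on Affymetrix arrays. Per the submitters' processing notes the values were made with MAS5 and Affymetrix Expression Console, with versions and settings not given in the sources used here. Values as deposited are linear array intensities, scaled per array by the authors' processing (trimmed mean 500.1 to 500.2). Low signal cannot be told from an absent transcript, since detection calls were not used here. MAS5 scaling makes each change relative to an array's average transcript. Sample titles gave the group and the replicate number.

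Values under 1 were raised to 1 and log2 was taken. Of 31042 probe sets that are not controls, 18625 with a mean log2 above the 40th percentile (6.62) were tested. Only the 20826 probe sets to which the platform annotation gives a single symbol were named (436 have several, 9780 have none), after updating symbols by gene ID. A gene was represented by its brightest probe set. Alternatives included a pseudocount of 16, other scalings and filters, covariates and leaving out arrays. Isoflurane was set against oxygen with limma 3.58.1, run in R 4.3.3 (linear fits moderated by eBayes with trend, two-sided, Benjamini-Hochberg over all probe sets tested), within each set of arrays, over all 20 with the set as a block, and as the interaction of set and treatment. The 2 sets were parted at Pcp2 after its signal was known.

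The members, the lists and the naming rule were chosen with earlier results of these data known. The rule names every member, the list genes that pass in a comparison or otherwise the 1 with the lowest p, and the 5 genes most like the members' mean profile. Tissue contrasts named for list genes were chosen after their values were seen. Same-numbered arrays of the groups did not deviate together (correlation -0.26 to 0.23 over 10 pairs, 2 above 0.1), so the numbers were not used as pairs. Python 3.11.15 with numpy 2.4.6, pandas 2.3.3 and matplotlib 3.10.9 made the descriptions and plots.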

Additional observations from a re-analysis of the deposited data

Results flagged for a closer look

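In 14 of 56 sets of 4 to 6 arrays examined, 1 probe set in 1 group and array set each, the highest or lowest array stood apart from the rest by Dixon's criterion, which chance meets in about 1 of 20. The 56 sets share the same arrays, and probe sets of Etv1 and of Cbln1 read the same gene. They are therefore not independent, and the count is not a test against that share. Of the 14, 5 fell on isoflurane array 10 among the cortex-like isoflurane arrays. There Cbln1 read 9.98, against 5.98 to 6.98 on the other 4, and 9.19 by its second probe set, against 5.66 to 6.42. En2 read 8.22, against 3.83 to 4.49, Fat2 8.06, against 3.31 to 4.63, and Neurod1 11.18, against 9.23 to 9.72. On the same arrays Cdh15 stood apart at the low end on isoflurane array 4, at 6.98 against 7.52 to 7.74.

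Among the cerebellum-like oxygen arrays, 4 of the 5 Etv1 probe sets set oxygen array 10 apart at the low end: 1392477_at at 12.52 against 13.03 to 13.26, 1391241_at at 11.49 against 12.23 to 12.38, 1397015_at at 11.22 against 11.99 to 12.18, and 1382593_at at 11.21 against 11.49 to 11.65. Zic2 was high on oxygen array 5, at 9.93 against 8.76 to 9.13. Among the cerebellum-like isoflurane arrays, isoflurane array 9 was low for Cadps2, at 11.89 against 12.29 to 12.44, and high for the second Cbln1 probe set, at 12.96 against 12.66 to 12.72. Isoflurane array 8 was low for Etv1 probe set 1392555_at, at 9.79 against 9.97 to 10.00.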

How the results depend on the processing

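No granule cell probe set was called on cerebellum-like arrays under any alternative run. Differences there that turned sign were Cbln1 (-0.05 with the 3'/5' ratio as a covariate, -0.04 with Pcp2 as one, -0.12 after quantile normalization, -0.08 as the mean of its probe sets, -0.02 with a replicate block), Neurod1 (0.00) and Cadps2 (0.01) with arrays centred on their medians, and Etv1 (0.00) after quantile normalization. With each array left out, Cbln1 ran from -0.01 to 0.05, Cadps2 from -0.07 to 0.07 and Neurod1 from -0.11 to 0.01, and all probe sets called from 0 to 1086 (without isoflurane array 9).

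On cortex-like arrays, all probe sets called numbered 1111 with the 3'/5' ratio, 1002 with Pcp2, 5243 with centred arrays and 0 without isoflurane arrays 2, 4, 5 and 6, a choice made after seeing the data. A pseudocount of 16 moved En2 to -0.96 and Fat2 to -0.72 with no change of call. With a replicate block 6 of the 14 were called (both Cbln1 probe sets, En2, Fat2, Neurod1 and Etv1 1391241_at), although the numbers do not pair the animals. Signs turned for Neurod1 (0.05), Fat2 (0.01) and Cdh15 (0.00) with the 3'/5' ratio, for Neurod1 (0.34), Cbln1 (0.04), En2 (0.01), Cdh15 (0.08) and Fat2 (0.34) with Pcp2, for Cadps2 (-0.17) with centring, for Etv1 (-0.05) as a mean of probe sets and for Zic2 (0.46) with the block. Without the 4 isoflurane arrays they turned for Etv1 (-0.15), Neurod1 (1.02), Cbln1 (1.57), En2 (1.73), Cdh15 (0.17) and Fat2 (2.08). With each array left out, calls ran from 1606 without isoflurane array 2 to 6266 without isoflurane array 10, oxygen array 1 being the only one of the 9 that moved the count by less than 1.5 times (4038 without it), and 0 to 7 of the 14 were called. Cadps2 ran from -0.06 to 0.12, Cdh15 from -0.13 to 0.06 and Zic2 from -0.29 to 0.03.

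The fit over all 20 arrays called 74 probe sets without the set block, 29 with a replicate block and 0 without the 4 isoflurane arrays, and 480 (without oxygen array 4) to 2938 (without isoflurane array 9) with 1 array left out, 0 to 4 of the 14 among them. Oxygen arrays 2, 3 and 4 and isoflurane arrays 1 to 6, 8 and 9 each moved that count over 1.5 times. The interaction called 104 with the 3'/5' ratio, 3899 with centring, 1037 with a filter at the 60th percentile, 1129 with a replicate block and 13 without the 4 isoflurane arrays, and 1109 (without isoflurane array 2) to 4303 (without isoflurane array 10) with 1 array left out, 0 to 5 of the 14 among them, oxygen arrays 3 and 4 and isoflurane arrays 2, 4, 6, 7 and 10 each moving it over 1.5 times. Of the 14 it called 2 with centring (Etv1 1382593_at and 1391241_at), which moved the median of all probe sets by 0.25 and the share of calls above 0 to 72.8%, against 25.3%, and 36.5% after quantile normalization. It called 3 without the 4 isoflurane arrays (both Cbln1 probe sets and En2). Its sign turned for Etv1 (0.02), Neurod1 (-0.18), Fat2 (-0.23) and Zic2 (0.06) with the 3'/5' ratio, for Cadps2 (0.18), Cdh15 (0.08) and Zic2 (0.13) with centring, for Cdh15 (0.03), Zic2 (0.07) and Zic1 (0.05) after quantile normalization, for Etv1 (0.24) as a mean of probe sets and for Cdh15 (0.03) with the block. Without the 4 isoflurane arrays it turned for Etv1 (0.25), Neurod1 (-1.05), Cbln1 (-1.55), En2 (-1.79), Fat2 (-2.27) and Zic2 (0.47). With 1 array left out Cadps2 ran from -0.15 to 0.04, Zic1 from -0.49 to 0.02 and Zic2 from -0.26 to 0.06. The cause of these moves was not tested.

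The tissue contrasts rest on no test, low signals lie near the array's background, and the number of arrays limits the precision.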

Other observations

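Lists of markers of other cells, fixed with earlier results of these data known, were read on the same arrays. On cerebellum-like arrays no tested marker of any list was called between isoflurane and oxygen by limma, and neither was any other gene. On cortex-like arrays 5 were called, with adjusted p of 0.00709 for Neurod6, 0.0132 for Gfap, 0.0179 for Ttr, 0.0215 for Homer3 and 0.0441 for Aldh1l1. All 5 were lower, while of all 10315 genes 9.04% were called lower and 6.22% higher there. On cerebellum-like arrays the summed linear signal of 5 Bergmann glia markers ran from 17720 to 20770 with isoflurane, against 16890 to 19890 with oxygen. That of 5 molecular layer interneuron markers ran from 13440 to 19180, against 12260 to 14490. Pvalb, at 13.23 to 14.10 on the log2 scale, made up most of the interneuron sum and differed by 0.30, isoflurane minus oxygen. Ptprk differed by -0.35, Cacng2 by -0.38, Sorcs3 by -0.23 and Kit by 0.00, with a median of -0.23 over the list. The sum of 4 choroid plexus markers spanned 927.3 to 13670 on cerebellum-like isoflurane arrays, against 417.3 to 14440 on cerebellum-like oxygen arrays. On cortex-like arrays it spanned 407.7 to 956.7 on isoflurane arrays, against 776.7 to 13280 on oxygen arrays. Ttr, at 13.66 on the log2 scale on oxygen array 3, made up nearly all of that high end. Folr1 differed by -0.30 on cortex-like arrays (limma's adjusted p = 0.595). Kl and Kcne2 did not pass the filter, and their cortex-like groups overlapped.

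The 25 other granule cell genes summed to 71070 to 77120 on cerebellum-like isoflurane arrays, against 71650 to 77330 on cerebellum-like oxygen arrays, and to 22920 to 24440 on cortex-like isoflurane arrays, against 22360 to 27770 on cortex-like oxygen arrays. Eomes, a marker of unipolar brush cells, ran from 8.03 to 9.37 on the log2 scale on cerebellum-like arrays, against 0.00 to 6.45 on cortex-like arrays. It did not pass the filter on dim probe sets, and its lowest value is the floor. Other markers on the list of unipolar brush and Golgi cells did not follow it. Grm2 ran from 8.10 to 9.13, against 8.81 to 9.91, and Slc6a5, also dim, from 1.12 to 3.91, against 1.00 to 4.78.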
